A study of Mus musculus with 16 samples.

Results

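The genes described here encode parts of the phagocyte NADPH oxidase and enzymes that remove superoxide and hydrogen peroxide. They are the 9 rows of the deposited gene table whose symbols are Cybb, Cyba, Ncf1, Ncf4, Rac2, Sod1, Sod2, Cat and Gpx1, out of 54532 genes in the table, and all 9 were among the 12496 genes with enough counts to be tested. The table compares microglia of the retina, its resident macrophages, between oxygen-induced retinopathy (OIR) and retinas without it (nonOIR), with 8 libraries in each group. In OIR, newborn mice are exposed to high oxygen, which halts and prunes retinal vessels, and are then returned to room air, where the poorly perfused tissue turns hypoxic and forms abnormal tufts of vessels. Every library of both groups came from Cx3cr1CreERT2:Rosa26-tdTomato mice at postnatal day 17, in which 5 µl of tamoxifen at 21 mg/ml, injected under the skin at postnatal day 1, switched on the red reporter. The Cre driver is the Cx3cr1 promoter, which is active in microglia and also in other cells of the mononuclear phagocyte lineage. Cells were sorted as low in CD45, positive for CD11b and tdTomato, and negative for Ly6C and Ly6G, surface markers of monocytes and granulocytes. The labels give neither the oxygen schedule nor the number of animals behind a library. Nor do they state that each library is an independent animal, so a p-value here speaks of the spread among these samples, part of which may be technical.

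The NADPH oxidase of phagocytes passes electrons from NADPH across a membrane to oxygen and so makes superoxide. Its catalytic subunit gp91phox, also called NOX2 and encoded by Cybb, sits in the membrane with p22phox, encoded by Cyba, and is inactive until p47phox (Ncf1), p40phox (Ncf4), a Rac GTPase and other factors join it from the cytosol. Superoxide dismutases turn superoxide into hydrogen peroxide, in the cytosol (Sod1) and in mitochondria (Sod2). Catalase (Cat) in peroxisomes and glutathione peroxidase 1 (Gpx1) then break hydrogen peroxide down to water. In the retina and brain, microglia are a main site of expression of this oxidase, which is known both for killing microbes and for signalling through peroxide.

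Library totals ran from 13.6 M to 30.0 M gene counts. A code in the labels placed replicates 1 to 5 of each group in sequencing lane 1 and replicates 6 to 8 in lane 2. The labels do not say what else differed between these sets, so the differences of all 9 genes are also given within lanes. Levels are counts per M counts (CPM) after TMM scaling, and a difference is a log2 fold change from edgeR's quasi-likelihood test, OIR against nonOIR, with its standard error. Adjusted p-values are Benjamini-Hochberg values over all 12496 genes, and a gene is said to rise or fall where this value was under 0.05. Of all genes tested, 798 rose, which is 6.39%, and 570 fell, which is 4.56%. With scaling to library size alone the share of called genes that rose was 73.7% in place of 58.3%, but the median difference of all genes stayed near 0, at 0.04 in place of -0.03. OIR replicate 1 stood apart on the third principal component of all genes tested (9.36% of the variance), with a score of 60.2 where the next largest in size was -10.1, and nonOIR replicate 8 had 28.9 CPM of erythroid transcripts where the other nonOIR libraries had at most 4.03. Counts without these 2 libraries are also given for the 9 genes, the related genes and all genes.

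The sort was checked against markers of the cells it could hold. The 7 microglial markers (P2ry12, Tmem119, Cx3cr1, Sall1, Siglech, Gpr34 and Fcrls) summed to between 14221 and 23240.0 CPM in OIR and between 25315 and 30152 CPM in nonOIR. In OIR 3 of the 7 fell, where 4.56% of all genes tested fell. Fcrls alone of the 7 had a higher mean in OIR, 2864 CPM against 2747 CPM in nonOIR. Neutrophils carry this oxidase at high levels. Of 10 neutrophil markers 4, Ly6g, Ngp, Elane and Retnlg, were at 0 in all 16 libraries, and the sum of the 10 reached at most 3.11 CPM in OIR and 1.26 CPM in nonOIR. The sum of 8 monocyte markers ran from 3.58 to 16.0 CPM in OIR and from 4.43 to 7.98 CPM in nonOIR, with Ly6c2 at 0 throughout, as was Cd177, a neutrophil gene that the list also held. Rod photoreceptor markers summed to between 34.4 and 355 CPM in OIR and between 55.0 and 436 CPM in nonOIR, and none of the 6 was called. The 5 markers of Mueller glia and astrocytes summed to between 237 and 361 CPM in OIR and between 329 and 393 CPM in nonOIR. Of the 3 that could be tested 1 fell, beside the same 4.56% of all genes. Endothelial markers summed to at most 42.1 CPM and lymphocyte markers to at most 0.803 CPM in any library. None of the 3 endothelial markers with enough counts to be tested was called, and no lymphocyte marker had enough. Erythroid markers summed to a median of 98.2 CPM in OIR and 1.11 CPM in nonOIR. The 2 of these 7 markers that could be tested rose, where 6.39% of all genes rose. The part of these other cells in the values of the 9 genes was not tested. Because these are bulk libraries, a change in the share of cells that carry a transcript and a change in the amount per cell cannot be told apart.

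Rac2 rose and Cybb rose among the 5 oxidase genes, and Sod1 and Cat rose among the 4 removal genes. None of the 9 fell. Beside the 6.39% of all genes that rose stand 4 of these 9. All 9 had a positive log2 fold change, with a median of 0.34 against -0.03 over all genes tested, where 5806 of 12496 were positive. The count was 4 without OIR replicate 1, 3 without nonOIR replicate 8 (Cybb was lost) and 4 without both. Over all genes 908, 698 and 858 rose in the same fits, in that order. The plot of CPM by library shows the 9 genes at their own scales.

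**Figure D1:**
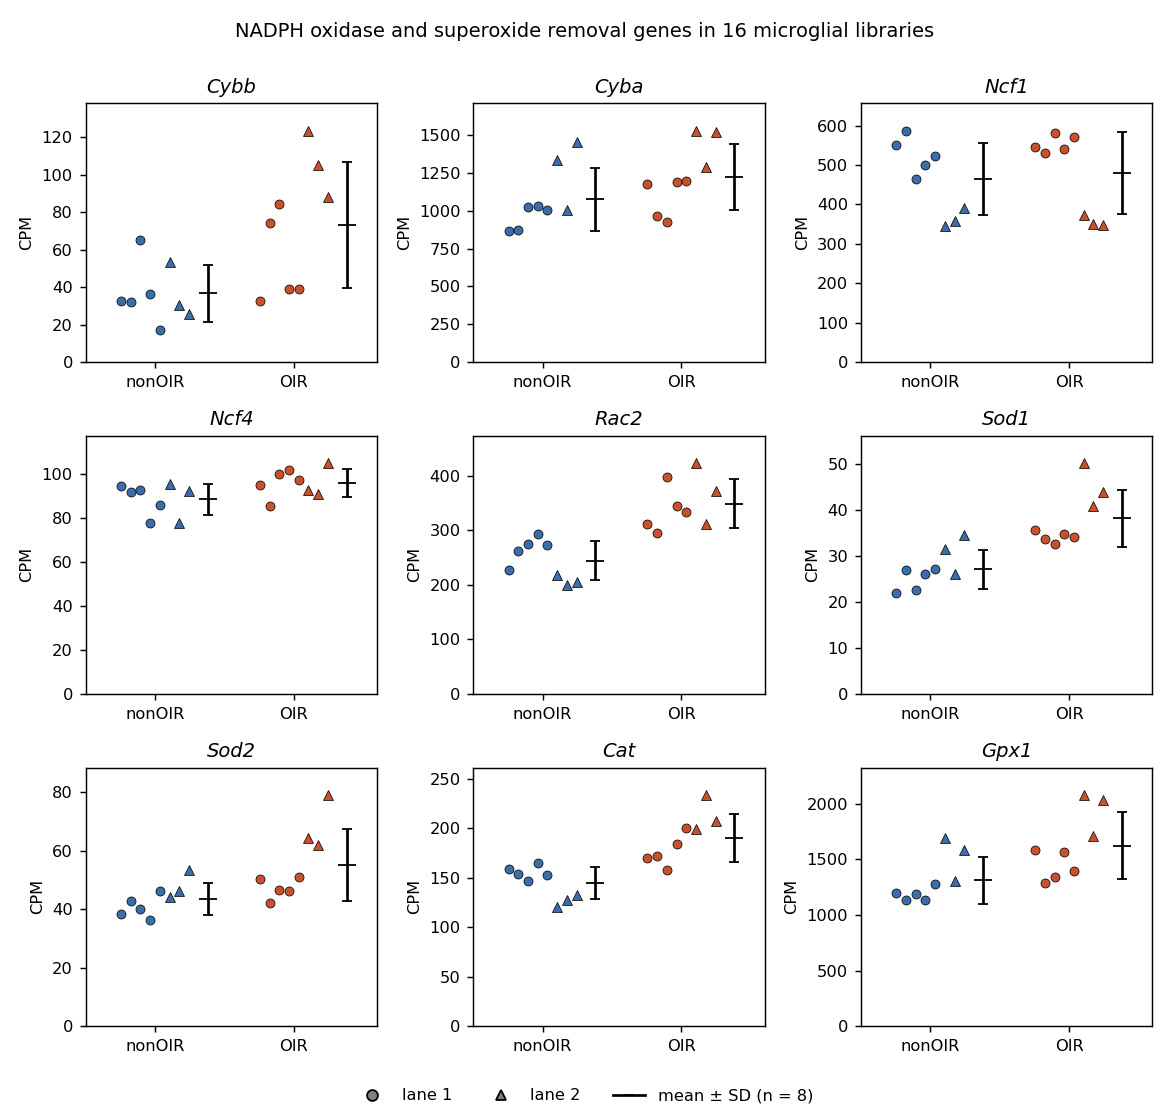
CPM (vertical axes, linear, starting at 0) of the 9 genes in 8 nonOIR and 8 OIR libraries, with circles for lane 1, triangles for lane 2, and bars for the mean ± SD (n = 8). Rac2 has no overlap between groups, Cybb is spread most widely within both groups, and Ncf1 separates by lane and not by group.

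Placed per kilobase of transcript, the membrane partners Cyba and Cybb lay near opposite ends of the order. CPM per kilobase of each gene's principal transcript (RPKM) was highest for Cyba, at 1445 ± 283 in nonOIR and 1645 ± 297 in OIR (SD, n = 8). Gpx1 came next with 1225 ± 198 in nonOIR and 1515 ± 278 in OIR, and its groups overlapped those of Cyba. Far below were Ncf1, with 171 ± 33.4 RPKM in nonOIR and 177 ± 38.01 in OIR, and Rac2, with 80.4 ± 11.8 and 115 ± 14.8, which overlapped in OIR only. Then came Cat (55.4 ± 6.16 and 73.0 ± 9.30), Ncf4 (60.4 ± 4.88 and 65.6 ± 4.34) and Sod1 (42.4 ± 6.53 and 59.7 ± 9.66), 3 neighbours whose OIR ranges overlapped. Cybb, the catalytic subunit, stood at 7.70 ± 3.25 RPKM in nonOIR and 15.4 ± 7.05 in OIR, and Sod2 at 7.42 ± 0.914 and 9.41 ± 2.10, the lowest pair, with overlapping ranges. The place of Sod1 depends on the length used: over all 3970 annotated exon bases in place of the 641 of the principal transcript, it stood at 6.84 RPKM in nonOIR and 9.65 in OIR, beside 6.30 and 12.6 for Cybb.

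Promoter sequences show how the start-site surroundings of these genes differ, and 4 are printed: those of Cybb, Sod1 and Cat, which rose and have an entry in RefSeq (build GRCm38.p6), and that of Ncf1, which had the smallest difference. Entries matched 7 of the 9 genes, without Ncf4 and Rac2. Each line runs 5′ to 3′ on the gene's strand from 250 bases before to 20 bases after the start site. Capitals mark the core of a PU.1 site, GAGGAA, bound by the transcription factor that drives the myeloid lineage, or the core of an antioxidant response element, TGACNNNGC, bound by NRF2, on either strand. The windows are chrX:9469305-9469574 (minus strand) for Cybb, chr16:90220512-90220781 (plus strand) for Sod1, chr2:103485134-103485403 (minus strand) for Cat and chr5:134229606-134229875 (minus strand) for Ncf1.
Cybb: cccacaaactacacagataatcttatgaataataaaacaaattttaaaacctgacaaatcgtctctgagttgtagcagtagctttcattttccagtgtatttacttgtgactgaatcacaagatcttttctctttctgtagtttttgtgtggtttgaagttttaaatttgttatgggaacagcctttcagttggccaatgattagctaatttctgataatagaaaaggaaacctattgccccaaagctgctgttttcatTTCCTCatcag
Sod1: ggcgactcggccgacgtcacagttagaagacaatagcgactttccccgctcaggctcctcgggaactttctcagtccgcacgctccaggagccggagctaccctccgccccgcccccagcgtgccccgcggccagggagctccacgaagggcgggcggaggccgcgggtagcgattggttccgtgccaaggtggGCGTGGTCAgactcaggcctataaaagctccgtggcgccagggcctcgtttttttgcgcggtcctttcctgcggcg
Cat: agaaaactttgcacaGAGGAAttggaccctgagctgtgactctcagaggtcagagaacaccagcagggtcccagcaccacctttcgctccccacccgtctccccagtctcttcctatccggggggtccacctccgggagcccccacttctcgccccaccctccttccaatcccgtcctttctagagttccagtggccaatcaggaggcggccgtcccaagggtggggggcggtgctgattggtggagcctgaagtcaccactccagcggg
Ncf1: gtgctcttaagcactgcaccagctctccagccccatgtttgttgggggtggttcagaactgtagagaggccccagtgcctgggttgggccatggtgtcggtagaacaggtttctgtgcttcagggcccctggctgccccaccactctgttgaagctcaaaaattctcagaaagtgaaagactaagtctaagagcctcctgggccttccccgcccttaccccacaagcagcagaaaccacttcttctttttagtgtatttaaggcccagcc

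The Cybb window held 34.1% G and C and the Sod1 window 67.0%, with Cat at 62.2% and Ncf1 at 54.1%. Motifs were searched on both strands of the RefSeq windows from 250 bases before to 50 after the start. The PU.1 core was found at position 10 of Cybb on the opposite strand (the first transcribed base being 1) and at position -235 of Cat, and also in the Sod2 window, and 28.28% of all 32851 promoter windows held it. Sod1 alone of the 7 held the antioxidant response core, at position -56 on the opposite strand, as did 12.39% of all windows. Sp1 boxes, GGGCGG, numbered 4 in Sod1 and in Sod2, 2 in Cyba, 1 in each of Ncf1, Cat and Gpx1, and 0 in Cybb, beside 35.66% of all windows with at least 1. The letters TATAAA, the core of a TATA box, occurred once in Sod1 and in no other of the 7, and in 13.62% of all windows. Ncf1 held neither capitalised core. Only these letters were searched, so sites spelled otherwise were not counted. These are matches of letters and show no binding.

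Cybb (ENSMUSG00000015340, X:9435252-9487771, minus strand, mm10), the catalytic subunit, had the largest log2 fold change of the 9 and the widest spread. In nonOIR its level ran from 16.8 CPM through a median of 32.5 to 65.0 CPM, and in OIR from 32.7 through 79.1 to 123 CPM. All 8 OIR libraries lay above the nonOIR median and 5 lay above every nonOIR library. Its mean was 36.6 ± 15.5 CPM in nonOIR and 73.2 ± 33.5 CPM in OIR (SD, n = 8), a log2 fold change of 1.00 ± 0.29 (SE), or 2.00-fold with a 95% interval of 1.31 to 3.06 (edgeR adjusted p = 0.0347). The coefficient of variation was 42.3% in nonOIR and 45.8% in OIR, and the highest library exceeded the lowest 3.86-fold and 3.77-fold. The count of reads behind these values ran from 434 to 2743 per library. OIR replicates 1, 4 and 5, at 32.7, 39.1 and 38.9 CPM, sat among the nonOIR libraries, while OIR replicates 2 and 3 reached 74.1 and 84.2 CPM in the same lane. In lane 2 the 3 OIR libraries had 123, 105 and 88.0 CPM against 53.5, 30.6 and 25.6 CPM in nonOIR, with no overlap.

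The Cybb call was the least stable of the 4. It was lost without any 1 of OIR replicates 3, 6, 7 or 8 or nonOIR replicates 1, 2, 4, 5, 7 or 8, and over all 16 omissions the log2 fold change lay between 0.87 and 1.17 and the adjusted p between 0.0146 and 0.0777. In lane 1 alone the log2 fold change was 0.57 (adjusted p = 0.443) and in lane 2 alone 1.57 (adjusted p = 0.00446). The authors' deposited table gives 0.81 on the log2 scale with an adjusted p of 0.00896. In the authors' deposited table the other 3 genes that rose here also have an adjusted p under 0.05, Rac2 with 4.3e-05, Sod1 with 0.000935 and Cat with 0.000514, and Sod2 (0.0569) and Gpx1 (0.0758) do not.

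Border and perivascular macrophages, which line vessels and meninges and also carry this oxidase, were followed by 7 markers (Mrc1, Cd163, Lyve1, Pf4, Cbr2, F13a1 and Ms4a7). None of the 7 passed the test, and their sum ran from 29.2 to 242 CPM in nonOIR, with a median of 97.7, and from 14.7 to 486 CPM in OIR, with a median of 177. The 3 OIR libraries of lane 2, which had the highest Cybb levels, also had the 3 highest sums, of 486, 424 and 480 CPM. OIR replicate 3, with 84.2 CPM of Cybb, had the lowest sum of all 16, at 14.7 CPM. Within nonOIR, replicates 3 and 6 had the highest Cybb levels, 65.0 and 53.5 CPM, and the highest sums, 242 and 229 CPM. After the mean of each group and lane was subtracted, Pearson's r of Cybb with the sum was 0.08 on the log2 scale. The part of border macrophages in the Cybb difference was not tested.

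**Figure D2:**
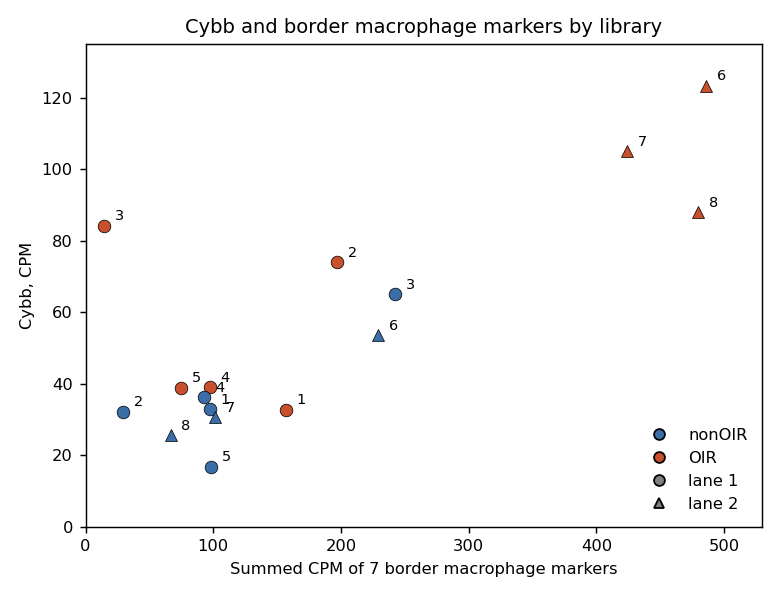
Cybb level (CPM, vertical axis) against the summed CPM of 7 border macrophage markers (horizontal axis) in each library, numbered by replicate, with colour for the group and shape for the lane. The 3 OIR libraries of lane 2 lie at the upper right, and OIR replicate 3 lies at the far left with 14.7 CPM of markers and 84.2 CPM of Cybb.

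Cyba (ENSMUSG00000006519, 8:122424776-122432930, minus strand) encodes p22phox, the partner that stabilises the catalytic subunit and docks p47phox. It ran from 865 CPM through a median of 1015 to 1453 CPM in nonOIR and from 929 through 1192 to 1527 CPM in OIR, and the groups overlapped over most of their range. Its log2 fold change was 0.19 ± 0.12 (SE, edgeR adjusted p = 0.381), or 1.14-fold with a 95% interval of 0.95 to 1.36. The log2 ratio of Cybb to Cyba within a library, which does not depend on scaling, was -4.96 ± 0.63 in nonOIR and -4.19 ± 0.70 in OIR (SD, n = 8). The difference of 0.77 had a two-sided exact permutation p of 0.0430, or 0.0995 after adjustment over the 4 ratios examined, and so did not pass. It was 0.40 in lane 1 (exact permutation p = 0.452) and 1.38 in lane 2, where 3 against 3 libraries cannot give a p below 0.1.

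The cytosolic organisers of the oxidase showed no difference that passed the test. Ncf1 (ENSMUSG00000015950, 5:134220053-134229625, minus strand) encodes p47phox, whose phosphorylation starts assembly. It ran from 346 through 482 to 586 CPM in nonOIR and from 347 through 536 to 582 CPM in OIR, with near-complete overlap. Its log2 fold change was 0.05 ± 0.14 (SE, edgeR adjusted p = 0.882), with a 95% interval of 0.842-fold to 1.27-fold, and turned to -0.01 without OIR replicate 1 and nonOIR replicate 8. Ncf1 overlaps Gtf2ird2 on the opposite strand, and since the library kit does not mark strand, reads of the overlap cannot be told apart. Ncf4 (ENSMUSG00000071715, 15:78244801-78262580, plus strand) encodes p40phox, which binds phosphoinositide on phagosome membranes. It was the steadiest of the 9, from 77.8 through 91.8 to 95.3 CPM in nonOIR and from 85.4 through 96.2 to 105 CPM in OIR, with coefficients of variation of 8.08% and 6.62%. Its log2 fold change was 0.12 ± 0.07 (SE, edgeR adjusted p = 0.341), and the 95% interval of 0.975-fold to 1.21-fold bounds the change more tightly than for any other of the 9. The log2 ratio of Ncf1 to Ncf4 was 2.37 ± 0.30 in nonOIR and 2.29 ± 0.34 in OIR (SD, n = 8, two-sided exact permutation p = 0.629).

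Ncf1 differed by lane far more than by group. In lane 1 it stood at 525 ± 47.1 CPM in nonOIR and 554 ± 21.6 CPM in OIR (SD, n = 5), and in lane 2 at 365 ± 23.1 and 358 ± 14.8 CPM (SD, n = 3). Every lane 2 library of either group lay below every lane 1 library. With the group as covariate the log2 difference of lane 2 from lane 1 was -0.58 ± 0.06 (SE, edgeR adjusted p = 1.16e-06). In this comparison 24.8% of all genes tested passed in either direction, and 5 of the 9 did: Ncf1 was lower in lane 2, and Cyba (0.40), Gpx1 (0.40), Sod2 (0.38) and Sod1 (0.35) were higher on the log2 scale. Cybb (0.51, adjusted p = 0.196) did not pass, nor did Rac2 (-0.11, adjusted p = 0.470), Ncf4 or Cat.

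Rac2 (ENSMUSG00000033220, 15:78559167-78572783, minus strand) encodes the Rac GTPase largely restricted to blood cells, which switches the assembled oxidase on when bound to GTP. In nonOIR it ran from 201 CPM through a median of 245 to 294 CPM, and in OIR from 295 through 339 to 423 CPM. Every OIR library lay above every nonOIR library, by a narrow margin between the nearest pair, and Rac2 was the only 1 of the 9 with no overlap, as were 1.34% of all genes tested. The mean was 244 ± 35.8 CPM in nonOIR and 349 ± 45.1 CPM in OIR (SD, n = 8), which is 0.51 ± 0.10 (SE) on the log2 scale, or 1.43-fold with a 95% interval of 1.24 to 1.65 (edgeR adjusted p = 0.00280). The call held in all 16 omissions of 1 library. In lane 1 alone it missed the threshold, with a log2 fold change of 0.34 (adjusted p = 0.0593), and in lane 2 it was 0.88 (adjusted p = 0.00178).

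Sod1 (ENSMUSG00000022982, 16:90220754-90226329, plus strand), the copper-zinc dismutase of the cytosol, rose by a similar factor. It ran from 21.9 through a median of 26.6 to 34.5 CPM in nonOIR and from 32.6 through 35.4 to 50.2 CPM in OIR. Only nonOIR replicate 8, at 34.5 CPM, reached into the OIR range. The mean was 27.2 ± 4.19 CPM in nonOIR and 38.3 ± 6.19 CPM in OIR (SD, n = 8), a log2 fold change of 0.49 ± 0.12 (SE), or 1.41-fold with a 95% interval of 1.18 to 1.68 (edgeR adjusted p = 0.0135). The call held in all 16 omissions and in each lane alone, at 0.46 in lane 1 (adjusted p = 0.0457) and 0.60 in lane 2 (adjusted p = 0.0430). Of the 592 stretches of 50 bases in its principal transcript, 137 (23.1%) also occur in the processed pseudogene Gm8566, so part of its reads may have been split or dropped in counting, and its level is uncertain.

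Sod2 (ENSMUSG00000006818, 17:13006846-13040063, plus strand), the manganese dismutase of mitochondria, missed the threshold. It ran from 36.4 through 43.5 to 53.4 CPM in nonOIR and from 42.2 through 50.7 to 78.9 CPM in OIR. The 3 OIR libraries above every nonOIR library were those of lane 2, at 64.2, 61.9 and 78.9 CPM. The log2 fold change was 0.34 ± 0.13 (SE, edgeR adjusted p = 0.0923), or 1.27-fold with a 95% interval of 1.06 to 1.53. It passed with lane as a covariate, at 0.32 (adjusted p = 0.0169). The log2 ratio of Sod2 to Sod1 was 0.68 ± 0.14 in nonOIR and 0.51 ± 0.17 in OIR (SD, n = 8), and the difference of -0.17 had a two-sided exact permutation p of 0.0497, or 0.0995 adjusted over the 4 ratios. Without OIR replicate 8, which had the highest Sod2, it was -0.22 (exact permutation test, adjusted p = 0.0336). Within lanes it was -0.25 in lane 1 (exact permutation p = 0.0317) and -0.05 in lane 2 (p = 0.8, where the smallest possible is 0.1).

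Cat (ENSMUSG00000027187, 2:103453849-103485160, minus strand), the peroxisomal catalase, rose. It ran from 120.0 through 149 to 165 CPM in nonOIR and from 158 through 192 to 233 CPM in OIR. OIR replicate 3, at 158 CPM, was the only OIR library within the nonOIR range. The mean was 145 ± 16.1 CPM in nonOIR and 191 ± 24.3 CPM in OIR (SD, n = 8), a log2 fold change of 0.40 ± 0.09 (SE), or 1.32-fold with a 95% interval of 1.16 to 1.504 (edgeR adjusted p = 0.00860), and the call held in all 16 omissions.

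Gpx1 (ENSMUSG00000063856, 9:108338903-108340343, plus strand) is a selenoprotein that reduces hydrogen peroxide with glutathione, and was the most abundant removal enzyme. It ran from 1132 through 1237 to 1694 CPM in nonOIR and from 1288 through 1574 to 2076 CPM in OIR. All 8 OIR libraries lay above the nonOIR median, and 3 above every nonOIR library. The log2 fold change of 0.31 ± 0.12 (SE), or 1.24-fold with a 95% interval of 1.05 to 1.46, did not pass (edgeR adjusted p = 0.0977). Its lanes differed in level, and within each lane the groups did not overlap: 1132 to 1278 CPM against 1288 to 1582 CPM in lane 1, and 1302 to 1694 CPM against 1706 to 2076 CPM in lane 2. With lane as a covariate it passed, at 0.30 ± 0.07 (SE, adjusted p = 0.00332). The log2 ratio of Gpx1 to Cat was 3.18 ± 0.37 in nonOIR and 3.08 ± 0.21 in OIR (SD, n = 8, two-sided exact permutation p = 0.540). The difference was 0.09 in lane 1 and -0.40 in lane 2, with exact permutation p of 0.333 and 0.2.

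**Figure D3:**
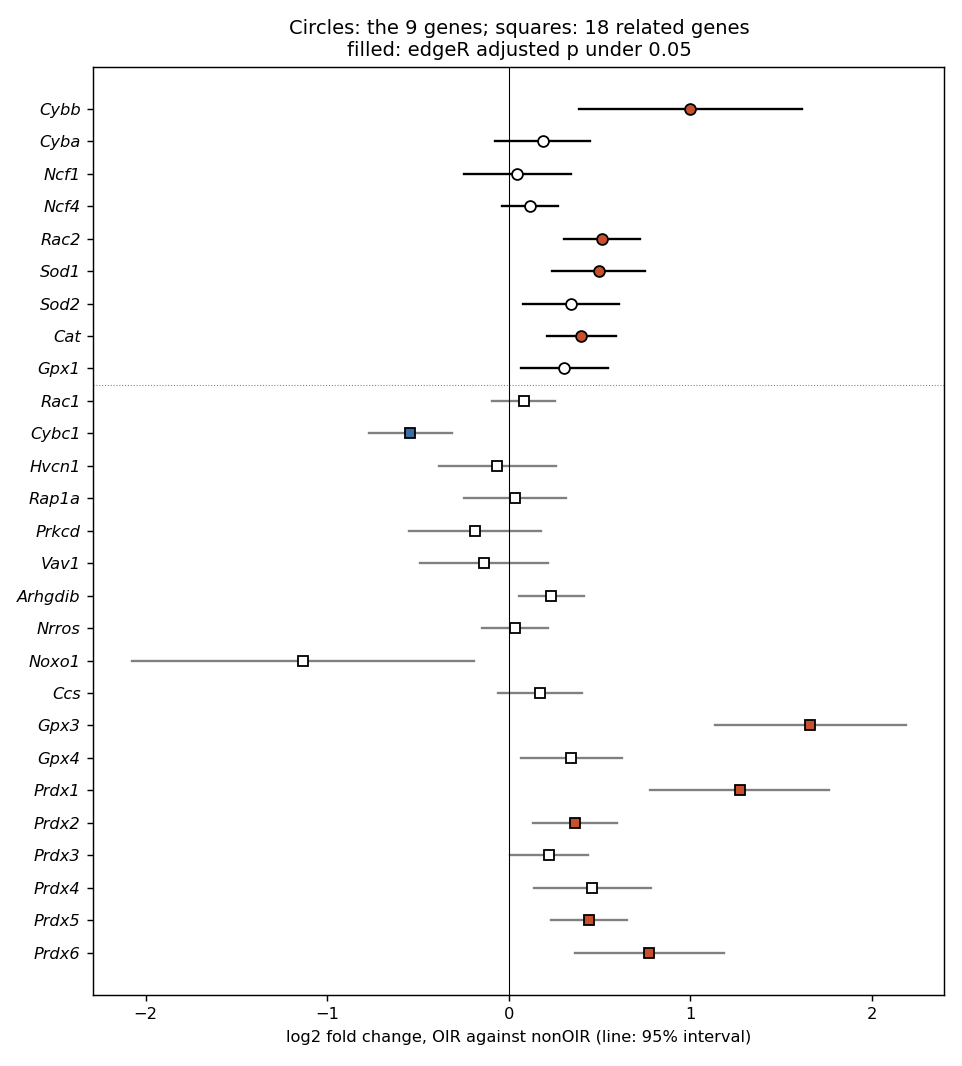
Log2 fold change of OIR against nonOIR (horizontal axis) with its 95% interval for the 9 genes (circles) and 18 related genes that could be tested (squares), filled where the edgeR adjusted p was under 0.05. Rac2, Sod1, Cat and Cybb are filled on the right, Cybc1 on the left, and Gpx3 and Prdx1 lie farthest right.

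Lane changed how many of the 9 passed, and the difference between lanes was itself tested. With lane as a covariate 6 of the 9 rose, the 4 named above with Sod2 and Gpx1, where 9.68% of all genes rose. In lane 1 alone, with 5 libraries a group, 2 rose (Sod1 and Gpx1) against 2.2% of genes tested there. In lane 2 alone, with 3 libraries a group, 5 rose (Cybb, Rac2, Sod1, Sod2 and Cat) against 9.63%. Within both lanes every OIR library lay above every nonOIR library of its lane for 3 of the 9, Rac2, Sod1 and Gpx1, and for 2.63% of all genes tested. Cyba (log2 fold changes of 0.19 in lane 1 and 0.24 in lane 2), Ncf4 (0.12 and 0.17) and Ncf1 (0.09 and 0.01) passed in neither lane. Sod2 stood at 0.22 in lane 1 (adjusted p = 0.334) and 0.56 in lane 2 (adjusted p = 0.0356), and Gpx1 at 0.28 (adjusted p = 0.0451) and 0.39 (adjusted p = 0.0548). The log2 fold change was larger in lane 2 than in lane 1 for 8 of the 9, Ncf1 being the exception. In the fit of both lanes together the difference was near 0 for Cyba (0.008) and Ncf4 (0.006). The share of all genes with a larger value in lane 2 was not counted. These 9 comparisons share their libraries, so the count of 8 is a description.

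In the test of the difference between lanes 0.496% of all genes passed, and of the 9 only Cat did. Cat stood at 155 ± 7.09 CPM in nonOIR and 177 ± 16.1 CPM in OIR in lane 1 (SD, n = 5), and at 127 ± 6.24 and 213 ± 17.8 CPM in lane 2 (SD, n = 3). The log2 fold change was 0.20 in lane 1 (edgeR adjusted p = 0.222) and 0.80 in lane 2 (adjusted p = 0.00120), and the fitted difference was 0.56 ± 0.12 (SE, adjusted p = 0.0488). This call was lost in 12 of the 16 omissions of 1 library, without any 1 of OIR replicates 1, 2, 6, 7 or 8 or nonOIR replicates 1, 2, 3, 4, 6, 7 or 8. The difference between lanes was 0.49 for Rac2 (adjusted p = 0.147) and 0.97 ± 0.52 (SE) for Cybb (adjusted p = 0.454), neither past the threshold.

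**Figure D4:**
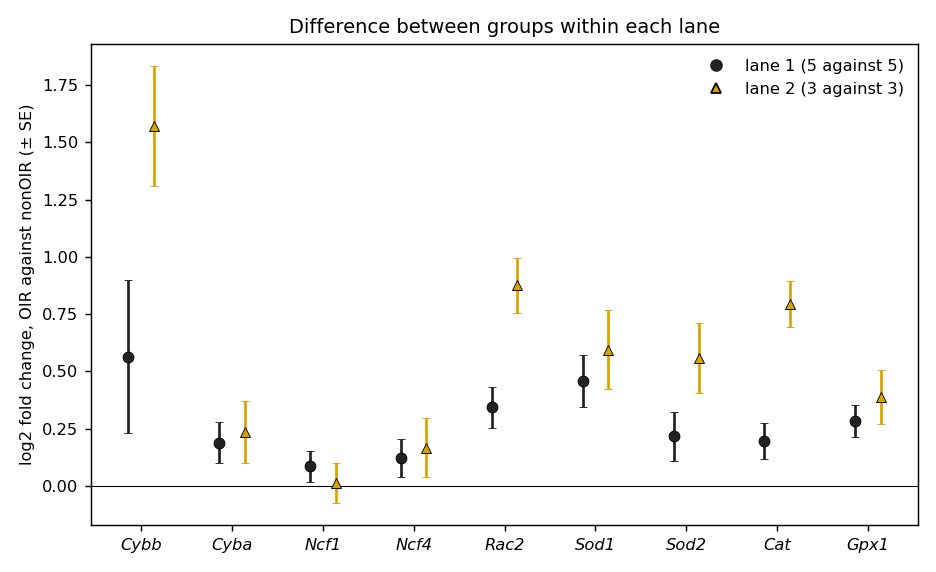
Log2 fold change of OIR against nonOIR (vertical axis, ± SE) of the 9 genes fitted within lane 1 (circles, 5 against 5 libraries) and within lane 2 (triangles, 3 against 3). Cat, at 0.20 and 0.80, is the gene whose lanes differed past the threshold, and Ncf1 and Ncf4 lie near 0 in both.

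Around these 9, a list of 30 related genes was followed, of which 18 had enough counts to be tested. Of the 8 genes of oxidase assembly and control, none rose and 1 fell, where 6.39% of all genes rose and 4.56% fell. Their median log2 fold change was -0.01, beside -0.03 over all genes. Cybc1, which encodes the chaperone needed to make mature gp91phox and p22phox, fell from 320 ± 42.1 CPM in nonOIR to 220 ± 41.1 CPM in OIR (SD, n = 8), which is -0.54 ± 0.11 on the log2 scale (SE, edgeR adjusted p = 0.00349), in the opposite direction to Cybb. None of the 8 OIR libraries lay above the nonOIR median. In lane 1 alone it was -0.35 (adjusted p = 0.181) and in lane 2 alone -0.81 (adjusted p = 0.000552). Cybc1 shares exon bases with Hexdc on the opposite strand, which this kit cannot separate, although 0.802% of the 50-base stretches in its principal transcript recur in another gene.

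Rac1, the widely expressed Rac that can also serve the oxidase, stood at 747 ± 71.8 CPM in nonOIR and 790 ± 93.7 CPM in OIR (SD, n = 8, edgeR adjusted p = 0.593), although 55% of the 50-base stretches of its principal transcript also lie in Daglb, which overlaps it. Nrros, which encodes a protein that limits the oxidase by promoting the decay of gp91phox, stood at 357 ± 38.2 and 366 ± 48.3 CPM (adjusted p = 0.860). Of the 9 other oxidases and their partners only Noxo1 had enough counts to test. It stood near the floor, at 1.13 ± 0.572 CPM in nonOIR and 0.515 ± 0.223 CPM in OIR (SD, n = 8). Its reads numbered 5 to 42 a library. The log2 fold change of Noxo1, -1.13, did not pass (edgeR adjusted p = 0.116). Of the 50-base stretches in its principal transcript, 44.8% also lie in Tbl3, which overlaps it on the opposite strand. Nox1, Nox3 and Nox4 had at most 4 reads over the 8 libraries of either group.

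The list also held 13 further removal genes. Of these 9 could be tested, 5 rose and none fell, where 6.39% of all genes tested rose. All 9 had a positive log2 fold change, as did 5806 of the 12496 genes tested, and their median was 0.44 beside -0.03 over all genes. The 5 were Gpx3, Prdx1, Prdx6, Prdx5 and Prdx2. Gpx3, a secreted glutathione peroxidase, rose from 17.0 ± 7.04 CPM in nonOIR to 53.7 ± 13.7 CPM in OIR (SD, n = 8), or by 1.66 ± 0.25 on the log2 scale (SE, edgeR adjusted p = 0.000467). Prdx1, a cytosolic peroxiredoxin that reduces peroxide through thioredoxin, rose from 276 ± 56.7 to 666 ± 320.1 CPM, by 1.27 ± 0.23 on the log2 scale (SE, adjusted p = 0.00196). In both genes every OIR library lay above every nonOIR library, as in 1.34% of all genes tested.

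In Prdx1 the spread of the OIR group followed the lanes, with 443 ± 71.6 CPM in lane 1 (SD, n = 5) and 1039 ± 122 CPM in lane 2 (SD, n = 3). Prdx6, which also acts on lipid peroxides, rose by 0.77 on the log2 scale (edgeR adjusted p = 0.0157), Prdx5 by 0.44 (adjusted p = 0.00781) and Prdx2 by 0.37 (adjusted p = 0.0415). Prdx2 kept its call in 5 of the 16 omissions of 1 library, those of OIR replicates 2, 3 and 5 and nonOIR replicates 6 and 8, and missed it in the other 11 (edgeR adjusted p up to 0.0769). Prdx2, Prdx5 and Prdx1 share 23.8%, 29.7% and 10.9% of their 50-base stretches with pseudogenes or overlapping genes, so their levels are uncertain. Sod3, the secreted dismutase, had 4 reads in the 8 OIR libraries together and 1 in the nonOIR libraries, too few to compare. Red cells are rich in peroxiredoxin 2. Erythroid transcripts, globins among them, summed to between 1.87 and 292 CPM in OIR, with a median of 98.2 CPM. In nonOIR they summed to between 0 and 28.9 CPM, with a median of 1.11 CPM. Only 2 of the 7 erythroid markers had enough counts to be tested. Those 2 rose, where 6.39% of all genes tested rose. The part of red cells in the removal genes was not tested.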

How the data were processed

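RNA was measured in 8 OIR and 8 nonOIR libraries of sorted retinal microglia, grouped by their labels. Per the labels' protocols, 750 pg of RNA gave cDNA that went through 12 PCR cycles, and single reads of 50 bases were taken. This workflow does not mark strand and uses no molecular identifiers, so counts are not independent molecules and counting precision is only part of the error. The counts deposited by the authors are whole numbers of reads for each gene. The submitters' processing notes name, without roles, the build mm10, STAR 2.6.0b-1 and FastQC 0.72, with DESeq2 2.11.40.2 and featureCounts 1.6.2, and no source used here names the gene annotation. The authors also deposited a normalized signal per library, a log2 fold change, a test score and p-values. Only their fold change and adjusted p-value are quoted, named as theirs.

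After filterByExpr and TMM scaling, the counts of 12496 genes were tested in R 4.3.3 with edgeR 4.0.16 (robust glmQLFit and glmQLFTest, two-sided), with no covariate in the test reported first. Confidence intervals are 95% intervals from the same model. Depth was 13.6 M to 30.0 M counts per library and the lowest chi-square per gene between libraries of a group was 15.7. Amplification alone can raise this value, so it does not show separate animals, and each library was counted as 1 sample as labelled. RPKM used the principal transcript in GENCODE M21 (mm10), which also gave coordinates and the stretches of 50 bases shared with other genes. Within-library log2 ratios used a pseudocount of 0.5 counts and two-sided exact permutation tests, adjusted over 4 ratios, whose smallest p is 0.000155. Likeness between genes was Pearson's r of log2(CPM + 1) after subtracting the mean of each group and lane, among genes of at least 10 CPM.

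The 9 genes, the 30 related genes and the marker lists were chosen with earlier results of these data known. All 9 genes are named, and of the related genes each one past the threshold and Rac1, Nrros and Sod3; Noxo1, Nox1, Nox3 and Nox4 were named after their values were seen. Alternatives covered scaling, filters, lane, replicate number, DESeq2 1.42.0, limma-voom (limma 3.58.1) and each library left out; the joint omission of OIR replicate 1 and nonOIR replicate 8, and the omissions in the test between lanes, were chosen after seeing the data. Some genes of these lists are not reported here.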

Additional observations from a re-analysis of the deposited data

Results flagged for a closer look

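Among 34 groups of 8 libraries (17 named genes in OIR and in nonOIR), 2 held 1 library whose gap to its nearest neighbour was above Dixon's 95% critical value for its share of the group's range, and chance alone gives this in about 1 in 20 groups. Cybc1, the chaperone gene that fell, stood at 313 CPM in OIR replicate 1, where the next highest OIR library had 233 CPM (gap over range 0.670). Nrros stood at 477 CPM in OIR replicate 8, where the next highest had 375 CPM (gap over range 0.668). The catalase gene Cat stands out for another reason: its log2 fold change was larger in lane 2 than in lane 1 by 0.56, and this difference passed the test of the interaction (edgeR adjusted p = 0.0488). This call lay near the threshold and was lost in most omissions of 1 library, as given above.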

How the results depend on the processing

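Of the 9 genes, 4 rose in the test without covariates and 2 in lane 1 alone; under DESeq2 size factors, library size, upper-quartile scaling, a minimum mean of 10 CPM and the DESeq2 test the count was again 4. Cybb was lost when low counts were kept (adjusted p = 0.0902) and by limma-voom (adjusted p = 0.0530). Leaving out 1 library gave between 3 and 5 calls, the fifth being Gpx1 without nonOIR replicate 6 (adjusted p = 0.0457). Of the related genes 6 were called, 11 with lane as a covariate and 11 with the replicate block. The count was 5 under upper-quartile scaling and with low counts kept, and 5 to 8 when 1 library was left out, 5 in 11 of the 16 omissions. In each of these cases with 5 the lost gene was Prdx2. Over all genes 1368 were called, 2159 with lane as a covariate and 1679 with the replicate block. The count was 417 in lane 1 alone, 2015 in lane 2 alone and 935 to 1556 when 1 library was left out. Without OIR replicate 1 and nonOIR replicate 8 together, 8 of the related genes and 1435 of all genes were called. The count of the 9 whose lanes differed was 1, and 0 to 1 when 1 library was left out; the count of ratios past the threshold was 0, and 0 to 1. The log2 fold change of Ncf1 ranged from -0.0034 (without nonOIR replicate 6) to 0.11 when 1 library was left out and was -0.013 without OIR replicate 1 and nonOIR replicate 8. The log2 ratio difference of Ncf1 to Ncf4 ranged from -0.15 to 0.0023, and that of Gpx1 to Cat was 0.088 in lane 1 and -0.40 in lane 2. The cause of these shifts was not tested. Within a lane, the smaller number of libraries and the lane itself cannot be told apart. Whether replicate numbers shared between the groups pair the samples was not settled. Correlations of same-numbered libraries lay between 0.01 and 0.30, and between -0.09 and 0.11 after lane was subtracted. With the replicate block, which also takes up lane, 6 of the 9 rose, where 965 of the 12496 genes tested rose. Sod2 (edgeR adjusted p = 0.0332) and Gpx1 (adjusted p = 0.00542) were added, as they were with lane as a covariate. Of the OIR libraries 2 of 8 correlated best with their own number. Depth limits Sod1 most, at 296 to 1140 counts a library.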

Other observations

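For each of the 9 genes, the genes whose levels went up and down with it most closely were found over the 16 libraries among 7809 genes, after the mean of each group and lane had been subtracted; these Pearson values share the same libraries and scaling and are a description. Cyba went closest with C1qc (0.95), Fcgrt (0.93) and Tmem37 (0.91), where C1qc encodes a chain of complement C1q and Fcgrt the neonatal Fc receptor. Gpx1 went with Ntpcr (0.94), Edf1 (0.93) and Ndufa7 (0.92), the last a subunit of mitochondrial complex I. Rac2 went with Tuba1b (0.89), an alpha tubulin, and with the glycolytic genes Eno1 (0.88) and Gapdh (0.85). Sod1 went with Sh3bgrl3 (0.87), Nectin2 (0.87) and Pld4 (0.86). Sod2 went with Asb1 (0.87), Bysl (0.86) and Mrpl55 (0.84), and Ncf4 with Lamtor2 (0.83), Creld2 (0.81) and Zcchc10 (0.80). Ncf1 went with Zfp449 (0.83), Me2 (0.82) and Acat1 (0.79), and Cat with Pptc7 (0.86), Pum3 (0.73) and Gm42602 (0.72). Cybb went with Fto (0.86), Pias2 (0.79) and Krba1 (0.79), none of which is a gene of the oxidase. None of the 27 genes found in this way was another of the 9, which says little where 7809 genes compete. The highest of so many values over 16 libraries can be large by chance alone. Among pairs of the 9, measured the same way over the 16 libraries, Cyba and Gpx1 had a Pearson value of 0.77, Cyba and Sod1 0.64, Ncf4 and Gpx1 0.61 and Sod1 and Gpx1 0.57. Cybb and its membrane partner Cyba had -0.29, and Cybb and Sod2 -0.64, the lowest of all pairs.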
